A study of Homo sapiens with 32 samples.

Results

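The early growth response factors EGR1, EGR2, EGR3 and EGR4 and the corepressors NAB1 and NAB2 were followed by RNA sequencing in HEK293 cells stimulated with EGF, AngII or both. These 6 genes were taken by name from the 57773 genes counted in each library, and all 6 have a row at both time points. EGR proteins are zinc finger transcription factors that bind GC-rich elements, and their genes belong to the immediate early genes, which are transcribed within minutes of growth factor signalling through ERK and the serum response factor SRF. NAB1 and NAB2 bind EGR1, EGR2 and EGR3 and repress transcription of their target genes. NAB2 is itself a described target of EGR factors and recruits the NuRD chromatin complex through CHD4, so that the pair is known as a negative feedback on EGR activity.

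HEK293 cells, a long established line from human embryonic kidney, were transiently transfected with the human angiotensin II receptor type 1 (AT1R, gene AGTR1) in all groups. Cells in medium without serum received no stimulus (Control), 1 nM AngII, 10 µg/l EGF or the combination (EGF+AngII), and RNA was taken after 6 h or 24 h. The study asked how stimulation of both receptors together, compared with either one, is passed on to transcription. Each condition had 4 libraries, except EGF+AngII after 24 h, where 3 of 4 labelled libraries had a column of counts. Single libraries are named by their titles (c for 6 h, b for 24 h). Not every cell takes up a plasmid in a transient transfection, and in bulk RNA a higher level per cell and a larger share of responding cells cannot be told apart. Nothing in the labels says that the libraries of a group came from separate cultures, so the tests measure the spread between these libraries, which may be technical.

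In GRCh37, EGR1 (ENSG00000120738) lies on chromosome 5 at 137801168-137804992 on the plus strand, EGR2 (ENSG00000122877) on chromosome 10 at 64571756-64578927 on the minus strand, EGR3 (ENSG00000179388) on chromosome 8 at 22545172-22550993 on the minus strand and EGR4 (ENSG00000135625) on chromosome 2 at 73518057-73520829 on the minus strand. NAB1 (ENSG00000138386) lies on chromosome 2 at 191511472-191557492 and NAB2 (ENSG00000166886) on chromosome 12 at 57482826-57489259, both on the plus strand. The 3' end of NAB2 overlaps STAT6 on the opposite strand by 69 bp, EGR3 overlaps the non-coding RP11.459E5.1 and NAB1 overlaps the non-coding AC006460.2. The strand setting of the counting is not stated, so reads from such overlaps cannot be told apart. EGR2 overlaps the non-coding ENSG00000289487 on the same strand by 4735 bp, where strand could not separate them. That gene has no row in the counts, nor has the non-coding ENSG00000284052, which overlaps NAB1 on the opposite strand.

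Total counts were 3881841 to 8540815 per library after 6 h and 6646227 to 33070903 after 24 h, but protein-coding genes held 81.4% to 84.7% of them after 6 h and 20.8% to 63.4% after 24 h, when U1 small nuclear RNA genes took 8.90% to 57.2%. Levels are given as FPM, the counts of a gene per 1000000 counts of the library after TMM scaling, and are compared only within a time point. The HEK293 markers NEFL, NEFM and VIM were abundant, LHX1 had 6.67 ± 1.72 FPM (SD, n = 4) in Control after 6 h, and PAX2 had 0 to 5 counts per library after 6 h. Of 6 markers of other cells, 5 have a row. PTPRC, CD3E, HBB and ALB were at 0 to 7 counts in every library, and COL1A1, a fibroblast collagen, had 17.0 ± 8.98 FPM in Control after 6 h. The transfected AGTR1 had 1096 ± 106 FPM in Control and 1097 ± 94.6 FPM with EGF after 6 h, but 1388 ± 93.2 FPM with AngII and 1497 ± 76.0 FPM with EGF+AngII (SD, n = 4), and the part of this difference in the results was not tested.

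The upstream sequences of the members are shown because EGR genes are described as targets of SRF and NAB2 as a target of EGR factors. RefSeq promoters (GRCh38.p14, 250 bases before the annotated start, read along the gene) were at hand for 5 of the 6 members, with 1 window for EGR1, EGR4 and NAB2 and 3 each for EGR2 and NAB1. EGR3 is named only. Both strands were searched for the EGR elements GCGTGGGCG and GCGGGGGCG, for the CArG box that SRF binds, and for TGACG, the core of a cAMP response element. Capitals mark CArG boxes in the EGR windows and EGR elements in the NAB windows; position -1 is the last base before the start.
EGR1, chr5:138465229-138465478, plus strand: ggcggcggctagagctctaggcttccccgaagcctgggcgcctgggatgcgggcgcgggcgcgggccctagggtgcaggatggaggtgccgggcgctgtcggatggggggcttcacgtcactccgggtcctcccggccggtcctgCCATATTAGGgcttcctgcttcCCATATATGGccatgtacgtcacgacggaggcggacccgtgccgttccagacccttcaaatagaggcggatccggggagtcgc
EGR2, chr10:62816367-62816616, minus strand: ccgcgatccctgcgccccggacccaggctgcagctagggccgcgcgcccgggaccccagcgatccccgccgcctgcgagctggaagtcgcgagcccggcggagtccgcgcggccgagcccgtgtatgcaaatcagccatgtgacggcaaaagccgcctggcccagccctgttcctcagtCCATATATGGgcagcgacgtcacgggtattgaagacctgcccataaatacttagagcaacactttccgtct
NAB2, chr12:57088864-57089113, plus strand: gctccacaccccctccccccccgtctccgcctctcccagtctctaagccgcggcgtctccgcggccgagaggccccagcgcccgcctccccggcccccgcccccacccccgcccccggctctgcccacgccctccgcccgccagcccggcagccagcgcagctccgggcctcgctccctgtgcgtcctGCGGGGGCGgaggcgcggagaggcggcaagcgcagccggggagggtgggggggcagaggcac
NAB1, chr2:190648645-190648894, plus strand: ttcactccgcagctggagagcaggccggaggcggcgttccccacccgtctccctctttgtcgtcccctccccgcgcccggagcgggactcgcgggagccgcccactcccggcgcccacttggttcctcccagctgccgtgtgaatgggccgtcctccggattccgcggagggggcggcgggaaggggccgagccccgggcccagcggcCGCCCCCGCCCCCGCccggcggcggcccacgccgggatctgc
The EGR1 window holds a CArG box from -105 to -96 and another from -83 to -74. Of 35116 windows of this length, 1.16% hold at least 1 CArG box and 0.0313% hold at least 2. The EGR2 window shown has 1 CArG box from -71 to -62, and the other EGR2 windows and that of EGR4 have none. TGACG occurs in the windows of EGR1 (at -135 and -66), EGR2 (at -110 and -54) and EGR4 (at -177 and -109), in the NAB1 windows not shown, and in 21.2% of all windows. NAB2 has GCGGGGGCG from -62 to -54, an element present in 4.72% of windows. The NAB1 window shown has this element on its minus strand from -42 to -34 and, overlapping it, from -36 to -28; a shifted NAB1 window also holds GCGTGGGCG from -175 to -167, which 0.720% of windows have. These matches are letters in a window and were not tested as binding sites.

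After 6 h, EGF raised EGR1, EGR3 and NAB2, while NAB1 did not pass the threshold and AngII alone moved none of the members past it. A gene was called when the adjusted p of edgeR's quasi-likelihood test was below 0.05, the fold change above 1.5 and the mean above 5 FPM in the higher group. With EGF 3 of the 4 members tested were called higher, against 1.04% of all 18618 genes tested, and with EGF+AngII the same 3 genes were called, against 1.39%. EGR2 and EGR4 had too few counts for this test after 6 h.

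EGR1, the founding member of the family, had 1.39, 1.91, 2.87 and 2.81 FPM in the 4 Control libraries, from 6 to 17 counts each. With EGF it had 54.6, 54.7, 49.1 and 47.8 FPM. All EGF libraries were far above all Control libraries, with a log2 fold change of 4.48 (SE 0.17, edgeR, adjusted p = 2.4e-14), a 22.3-fold rise with a 95% interval of 17.4 to 28.6. With EGF+AngII the libraries had 68.4, 60.3, 52.9 and 49.2 FPM, and the log2 fold change against Control was 4.64 (SE 0.17, edgeR, adjusted p = 9.5e-15). With AngII alone EGR1 had 3.04, 4.0, 2.33 and 3.67 FPM, which overlapped Control (log2 fold change 0.50, 95% interval -0.06 to 1.06, edgeR, adjusted p = 0.99).

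EGR3, a close relative of EGR1 that is usually induced by the same signals, had 1.39, 1.12, 0.958 and 0.992 FPM in Control. With EGF it had 8.04, 7.17, 6.15 and 8.37 FPM, and with EGF+AngII 11.4, 9.81, 7.91 and 10.2 FPM. Every library of both EGF groups was above every Control library. The log2 fold change was 2.74 with EGF (SE 0.25, edgeR, adjusted p = 2.0e-07) and 3.13 with EGF+AngII (SE 0.25, edgeR, adjusted p = 1.0e-08). With AngII alone EGR3 was at 0.761, 0.80, 1.33 and 0.787 FPM, where 3 libraries lay below the lowest Control library and 1 inside the Control range (log2 fold change -0.23, 95% interval -1.12 to 0.66, edgeR, adjusted p = 0.99).

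NAB2, the inducible corepressor, had 7.86, 5.74, 4.02 and 6.12 FPM in Control. It rose to 29.9, 30.6, 27.6 and 29.7 FPM with EGF and to 32.5, 37.2, 31.3 and 36.1 FPM with EGF+AngII. The rise was 5.0-fold with EGF (95% interval 3.88 to 6.46, log2 fold change 2.32, SE 0.18, edgeR, adjusted p = 1.3e-08) and 5.82-fold with EGF+AngII (95% interval 4.51 to 7.50, log2 fold change 2.54, SE 0.18, edgeR, adjusted p = 1.7e-09). The EGF groups did not overlap with Control or with AngII, where NAB2 had 7.04, 5.60, 8.84 and 3.15 FPM. STAT6, which shares 69 bp with NAB2 on the other strand, had 35.2 ± 2.29 FPM in Control and 27.2 ± 1.56 FPM with EGF (SD, n = 4, log2 fold change -0.36, edgeR, adjusted p = 0.025, short of the 1.5-fold change required for a call).

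NAB1, the constitutive corepressor, had 57.9 to 69.0 FPM in Control (median 66.8) and 57.5 to 64.3 FPM with EGF (median 57.9). The groups overlapped. The log2 fold change was -0.13 with EGF (95% interval -0.29 to 0.03, edgeR, adjusted p = 0.35) and -0.15 with EGF+AngII (95% interval -0.31 to 0.01, edgeR, adjusted p = 0.30). On the linear scale the interval was 0.817 to 1.02-fold with EGF and 0.806 to 1.01-fold with EGF+AngII. The EGF+AngII libraries, at 54.9 to 60.7 FPM, all lay below the AngII libraries, at 62.4 to 69.1 FPM. Against AngII the log2 fold change was -0.17 (95% interval -0.33 to -0.01, edgeR, unadjusted p = 0.042, adjusted p = 0.23).

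EGR2, known from hindbrain and Schwann cell development, was counted 1, 3, 2 and 4 times in the Control libraries, 1, 4, 3 and 1 times with AngII, 14, 6, 6 and 11 times with EGF and 17, 9, 18 and 10 times with EGF+AngII. Its mean level was 0.439 ± 0.180 FPM in Control, 1.39 ± 0.696 FPM with EGF and 2.20 ± 0.752 FPM with EGF+AngII (SD, n = 4). Each EGF and each EGF+AngII library lay above each Control library (exact permutation test, two-sided, p = 0.029 for either group, the smallest p that 4 against 4 allow). Permuted within the library series the p was 0.056 for either group, the smallest that this exact permutation test allows, which does not pass 0.05. When genes with at least 10 counts over all libraries were tested, a filter chosen after the values were seen, the log2 fold change of EGR2 was 2.23 with EGF+AngII (edgeR, adjusted p = 0.0058) and 1.56 with EGF (edgeR, adjusted p = 0.11), at levels below the 5 FPM required for a call. EGR4, expressed mainly in neurons, was counted at most once per library after 6 h, which does not allow a comparison.

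**Figure D1:**
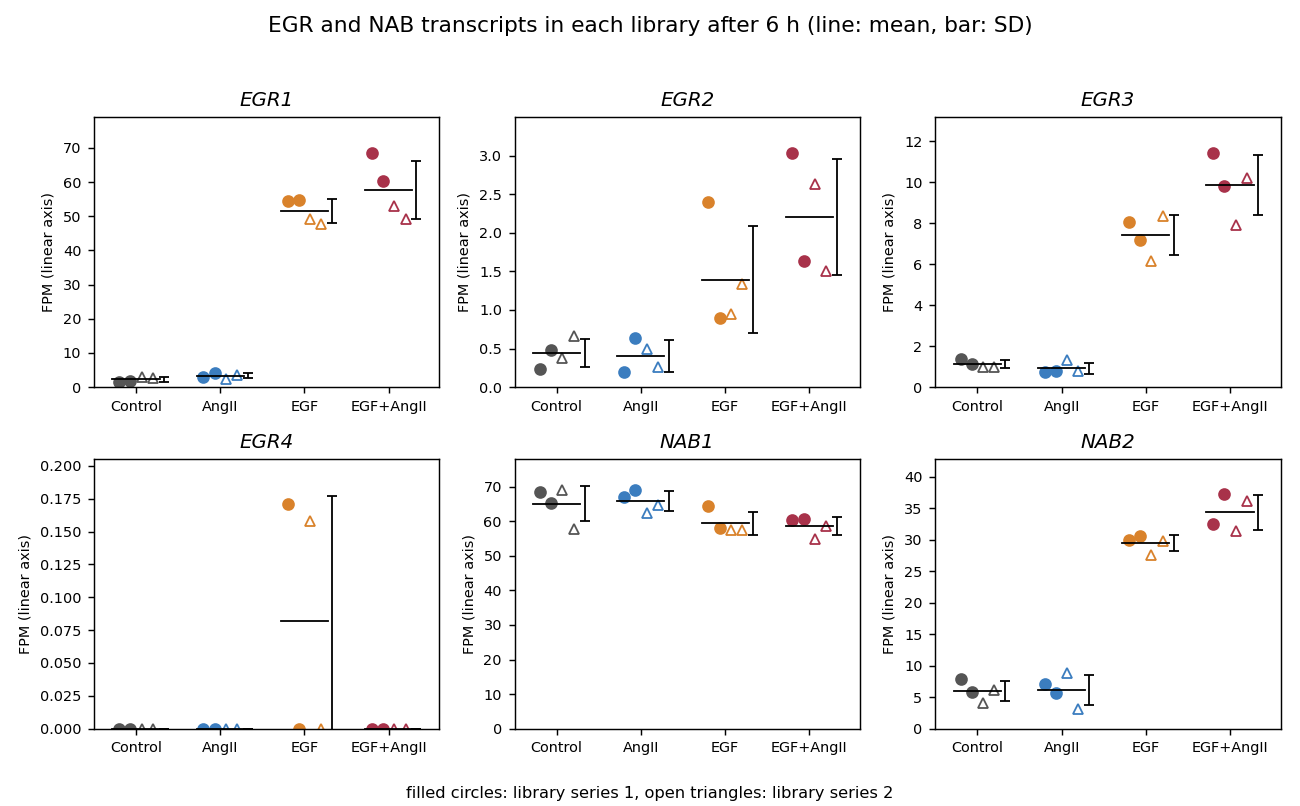
Level of each member in every library after 6 h, in FPM on a linear axis that starts at 0 and differs between panels, by condition; symbols mark the library series, lines the mean and bars the SD of 4 libraries. EGR1 is at 1.39 to 2.87 FPM in Control and at 47.8 to 54.7 FPM with EGF, whereas NAB1 stays between 54.9 and 69.1 FPM throughout.

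Per kilobase of exon, the scale on which different genes can be compared, the corepressors outweighed the EGR genes in Control after 6 h. NAB1 had 13.3 ± 1.05 FPM per kb, NAB2 2.08 ± 0.551, EGR1 0.716 ± 0.230, EGR3 0.221 ± 0.0387 and EGR2 0.118 ± 0.0486 (SD, n = 4). With EGF, EGR1 came first with 16.4 ± 1.15 FPM per kb, followed by NAB1 with 12.2 ± 0.677, NAB2 with 10.3 ± 0.454, EGR3 with 1.48 ± 0.197 and EGR2 with 0.376 ± 0.188. In Control and with EGF, neighbours in this order differed by more than the sum of their SDs. With EGF+AngII NAB1 at 12 ± 0.543 and NAB2 at 12 ± 0.983 FPM per kb could not be put in an order. Within a library, the sum of NAB1 and NAB2 was 11 to 21.5 times that of all EGR genes in Control and 1.18 to 1.28 times with EGF.

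The make-up of the NAB pool differed between the libraries with and without EGF. NAB2 made up 9.06% to 16.4% of NAB1 plus NAB2 per kb in the Control libraries and 7.66% to 19.5% with AngII. With EGF its share was 44.3% to 47.4% and with EGF+AngII 47.9% to 51.2%. NAB2 set against EGR1, both per kb, was 1.54 to 6.21 in Control, and lower at 0.602 to 0.682 with EGF and 0.521 to 0.805 with EGF+AngII. The share of EGR1 among the EGR genes was 56.7% to 75.7% in Control and 88.3% to 91.3% with EGF. These ratios were chosen after the values were seen and carry no test; the Control ratios rest on 6 to 17 counts of EGR1.

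Adding AngII to EGF moved none of the members tested past the threshold after 6 h. EGR2 had too few counts for edgeR's test. Its mean was 1.39 FPM with EGF and 2.20 FPM with EGF+AngII (exact permutation test, two-sided, p = 0.17). The edgeR test called 0 members for EGF+AngII against EGF (0% of all genes tested), with EGR3 at an unadjusted p under 0.05, and DESeq2 called 0 as well. EGR3 was 1.32-fold higher (95% interval 1.02 to 1.70, log2 fold change 0.40, edgeR, adjusted p = 0.68), NAB2 1.16-fold (95% interval 0.950 to 1.42, log2 fold change 0.22, edgeR, adjusted p = 0.72) and EGR1 1.12-fold (95% interval 0.955 to 1.31, edgeR, adjusted p = 0.73). With TMM scaling NAB2 was the member whose libraries did not overlap over both library series. It had 31.3 to 37.2 FPM with EGF+AngII against 27.6 to 30.6 FPM with EGF. The exact permutation test gave a two-sided p = 0.029, the smallest p that 4 against 4 allow. This p is among 57 such tests of single members and not adjusted for them. The difference was 4.59 FPM in one library series and 5.05 FPM in the other. Scaled to the total count alone the NAB2 groups overlapped, with 30.3 FPM in c15 (EGF+AngII) and 30.5 FPM in c03 (EGF). Scaled to the counts of protein-coding genes they overlapped too, with 36.6 FPM in c15 and 37.0 FPM in c04 (EGF). The series are c01 to c08 and c09 to c16 (b01 to b08 and b09 to b16 after 24 h), which repeat the same order of conditions. The titles number the libraries without a break between the series, but the column names of the 24 h counts skip numbers there. What this break stands for is not stated. Within each series EGR1 was higher in every EGF+AngII library than in every EGF library. The means differed by 9.74 FPM in one series and 2.59 FPM in the other (exact permutation test within series, two-sided, p = 0.056, the smallest p it allows, and p = 0.29 over all libraries). In the second series the closest libraries were c16 (EGF+AngII) with 49.2 FPM and c11 (EGF) with 49.1 FPM. Scaled to the total count alone these overlapped, with 47.1 FPM in c16 and 48.3 FPM in c11.

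The interaction of EGF and AngII was tested on the log2 scale, where it measures a departure from the product of the single fold changes. After 6 h it called 0 members (0% of genes tested, edgeR, with 0 members at an unadjusted p under 0.05 and 0 called by DESeq2). A departure from the sum of the single effects was not tested. On the FPM scale, NAB2 with EGF+AngII exceeded Control by 28.4 FPM, against 23.8 FPM for the sum of the single effects, an excess of 4.60 FPM (SE 2.11). The excess was 2.60 FPM for EGR3 (SE 0.900) and 5.15 FPM for EGR1 (SE 4.66), sizes that carry no test here. After 24 h EGR1 with EGF+AngII exceeded Control by 32.1 FPM, against 22.2 FPM for the sum of the single effects, an excess of 9.90 FPM (SE 2.81). EGR3 and NAB2 fell below the sum at this time, with -0.643 FPM (SE 0.786) and -0.746 FPM (SE 1.16). For EGR2 the excess was 1.23 FPM (SE 0.621) and for NAB1 1.64 FPM (SE 3.95), again without a test. AngII against Control called 0 members after 6 h (0% of all genes, edgeR; 0 members at an unadjusted p under 0.05, and 0 called by DESeq2), and EGF+AngII against AngII called the 3 members called with EGF (1.39% of all genes higher).

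After 24 h EGR1 was still high in every library that received EGF, and it was the member that passed the threshold. With EGF 1 of 5 members tested was called higher, against 0.0316% of 22174 genes tested, and likewise with EGF+AngII, against 0.0271%, and for EGF+AngII against AngII, against 0.0406%. The libraries spread more at this time (biological coefficient of variation 29.1%, and 10.6% after 6 h), so that a change has to be larger to be called. These shares rest on 7, 6 and 9 genes called higher. Counted in either direction, the calls moved with the setting. In that count DESeq2 called 52, 27 and 36 genes, and leaving out a library gave 2 to 9, 2 to 16 and 6 to 18.

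EGR1 had 5.24, 3.72, 5.95 and 4.20 FPM in Control after 24 h. With EGF it had 25.3, 26.3, 33.0 and 25.3 FPM and with EGF+AngII 36.6, 40.5 and 33.6 FPM. The groups were well apart, with a 5.77-fold rise with EGF (95% interval 4.41 to 7.53, log2 fold change 2.53, SE 0.19, edgeR, adjusted p = 1.5e-07) and a 7.71-fold rise with EGF+AngII (95% interval 5.83 to 10.2, log2 fold change 2.95, SE 0.19, edgeR, adjusted p = 1.9e-08). With AngII alone EGR1 had 2.99, 4.17, 4.67 and 5.32 FPM, overlapping Control (log2 fold change -0.17, 95% interval -0.57 to 0.24, edgeR, adjusted p = 1.0).

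After TMM scaling all EGF+AngII libraries had more EGR1 than all EGF libraries after 24 h, by 9.41 FPM on average. Scaled to the total count alone, without TMM, the groups overlapped, as b16 (EGF+AngII) had 19.1 FPM of EGR1 and the EGF libraries 21.1 to 34.5 FPM (difference 11.4 FPM, exact permutation test, two-sided, p = 0.29). With TMM the log2 difference was 0.42 (95% interval 0.04 to 0.80, unadjusted p = 0.031 and adjusted p = 1.0 with edgeR), and the exact permutation test gave the smallest p that 3 against 4 allow (two-sided, p = 0.057). EGR1 was the 1 member at an unadjusted p under 0.05, both here and for the interaction on the log2 scale (0.59, 95% interval 0.03 to 1.14, edgeR, adjusted p = 1.0). In either comparison edgeR and DESeq2 called 0 members, and edgeR called 0% of all genes. The highest EGF library, b11 with 33.0 FPM, came close to the lowest EGF+AngII library with 33.6 FPM.

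EGR3 had 0.929, 1.72, 1.54 and 2.24 FPM in Control after 24 h, 4.73, 5.57, 5.17 and 5.47 FPM with EGF and 3.48, 4.85 and 5.70 FPM with EGF+AngII. Every EGF library was above every Control library (exact permutation test, two-sided, p = 0.029, the smallest p that 4 against 4 allow). In the test across genes the log2 fold change was 1.69 with EGF (SE 0.33, edgeR, adjusted p = 0.072) and 1.52 with EGF+AngII (SE 0.35, edgeR, adjusted p = 0.19). The call with EGF depended on the setting, and EGR3 passed without the filter on low counts (edgeR, adjusted p = 0.017), with the library series as a block (edgeR, adjusted p = 0.021) or when protein-coding genes alone were fitted (edgeR, adjusted p = 0.031). In DESeq2 the adjusted p was 0.00053 with EGF and 0.018 with EGF+AngII, but the level as scaled there was below the 5 FPM required for a call.

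NAB2 had 3.72, 3.0, 3.88 and 3.62 FPM in Control, 8.08, 8.05, 4.08 and 6.05 FPM with EGF and 5.14, 5.63 and 6.92 FPM with EGF+AngII after 24 h. The groups that received EGF did not overlap with Control, but the rise with EGF was 4.71 FPM in one library series and 1.32 FPM in the other. The log2 fold change was 0.88 with EGF (95% interval 0.33 to 1.42, edgeR, adjusted p = 0.34) and 0.73 with EGF+AngII (95% interval 0.15 to 1.31, edgeR, adjusted p = 0.85). NAB1 was at 25.4 to 39.5 FPM in Control, 26.4 to 34.2 FPM with EGF and 26.4 to 30.0 FPM with EGF+AngII. Its log2 fold change was -0.23 with EGF (95% interval -0.51 to 0.06, edgeR, adjusted p = 0.70) and -0.33 with EGF+AngII (95% interval -0.63 to -0.02, edgeR, unadjusted p = 0.039, adjusted p = 0.91).

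EGR2 was counted 1 to 43 times per library after 24 h. It had 0.345 to 1.72 FPM in Control, 0.0664 to 0.906 FPM with AngII, 0.851 to 1.91 FPM with EGF and 1.05 to 2.48 FPM with EGF+AngII, with overlap between all groups but EGF+AngII and AngII. Its log2 fold change of 0.30 with EGF had a 95% interval of -0.99 to 1.59 (edgeR, adjusted p = 0.94), or 0.505 to 3.01-fold, an interval that still holds the value of 1.56 fitted after 6 h. EGR4 had 0 counts in 11 of 15 libraries and at most 6 in the others. AngII against Control called 0 members after 24 h (0% of genes tested, edgeR; 0 members at an unadjusted p under 0.05, and 0 called by DESeq2).

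**Figure D2:**
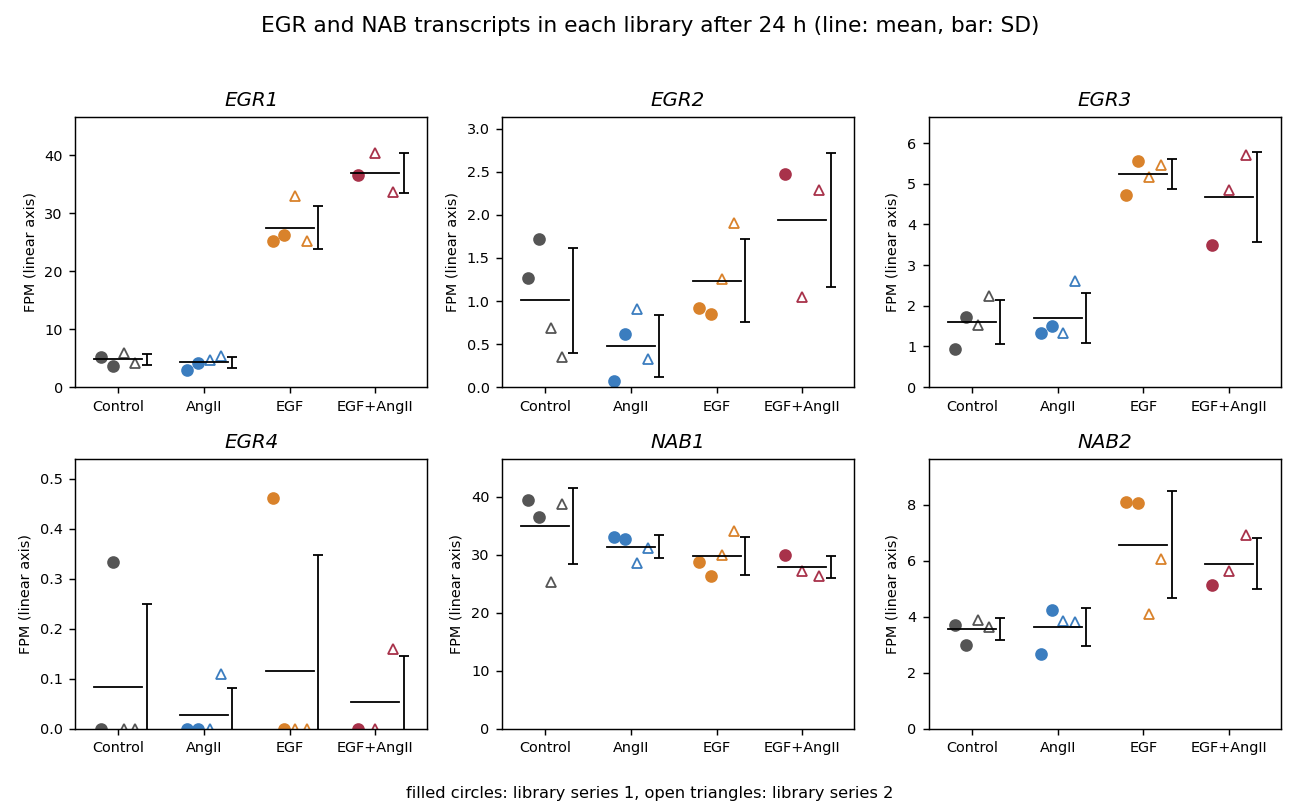
Level of each member in every library after 24 h, in FPM on a linear axis that starts at 0 and differs between panels, by condition; symbols mark the library series, lines the mean and bars the SD of 4 libraries (3 with EGF+AngII). The 3 EGF+AngII libraries have 33.6 to 40.5 FPM of EGR1, above the 25.3 to 33.0 FPM of the EGF libraries, while NAB2 with EGF spreads from 4.08 to 8.08 FPM.

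The effect of EGF on EGR1 and NAB2 was smaller after 24 h than after 6 h when the difference itself was tested over all 31 libraries. The log2 effect of EGF on EGR1 was lower by 1.96 after 24 h (difference -1.96, SE 0.27, edgeR, adjusted p = 0.00035) and that of EGF+AngII by 1.72 (difference -1.72, SE 0.27, edgeR, adjusted p = 0.0041). For NAB2 the difference was -1.45 with EGF (SE 0.31, edgeR, adjusted p = 0.035) and -1.82 with EGF+AngII (SE 0.33, edgeR, adjusted p = 0.0096). The differences of EGR3, -1.06 with EGF (SE 0.41, edgeR, adjusted p = 0.33) and -1.64 with EGF+AngII (SE 0.42, edgeR, adjusted p = 0.14), and those of NAB1 and EGR2 did not pass.

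Thus 2 of 5 members differed with EGF, against 0.173% of 21932 genes tested, and 2 of 5 with EGF+AngII, against 0.123%. For AngII it was 0 members (0% of genes, edgeR; 1 member, EGR1, at an unadjusted p under 0.05). The NAB2 difference with EGF was near the threshold. When each of the 31 libraries was dropped in turn it missed the threshold in 14 cases (edgeR, adjusted p = 0.050 to 0.10), namely without the 6 h libraries c02, c03, c04, c07, c08, c09, c10, c11 or c12 or the 24 h libraries b01, b09, b10, b11 or b12. The time points differ in the share of non-coding RNA, and time and library composition cannot be told apart.

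**Figure D3:**
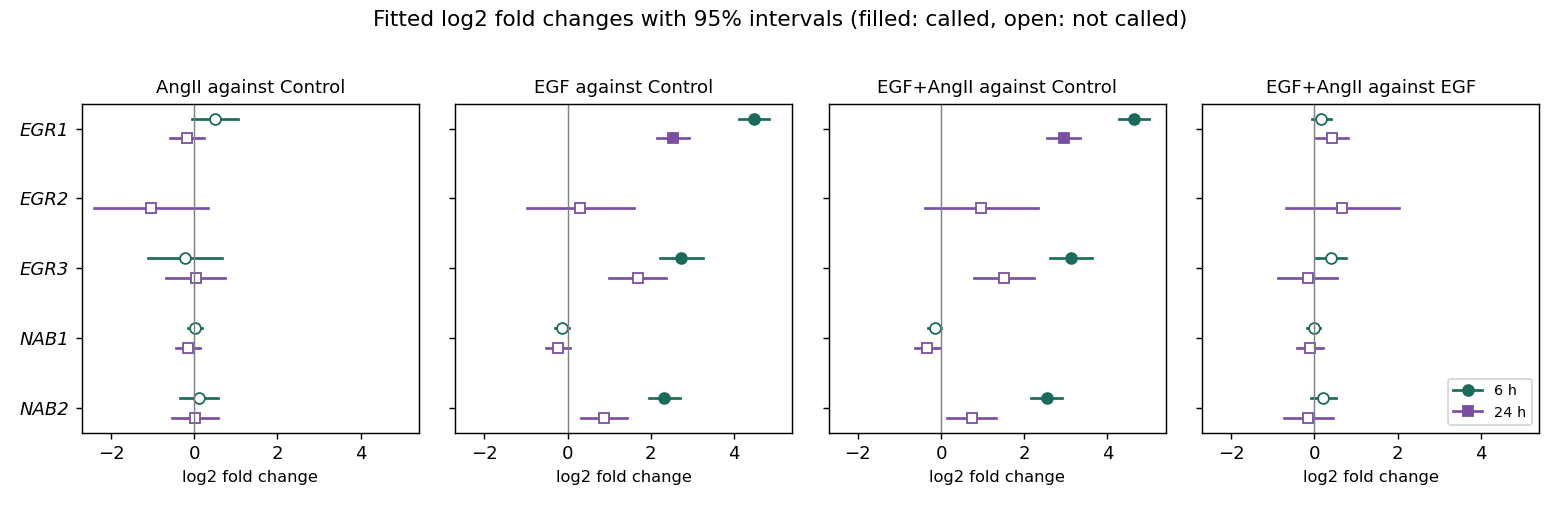
Fitted log2 fold change of each tested member with its 95% interval in 4 comparisons, circles for 6 h and squares for 24 h, filled where the member was called; EGR2 could not be fitted after 6 h and EGR4 at neither time. EGR1 moves from 4.48 to 2.53 with EGF and NAB2 from 2.32 to 0.88, and for EGF+AngII against EGF all fitted values lie between -0.17 and 0.67.

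Per kb, NAB1 led in Control after 24 h with 7.16 ± 1.34 FPM, ahead of EGR1 with 1.52 ± 0.321 and NAB2 with 1.24 ± 0.134, which differed by less than their spread. With EGF the order was EGR1 with 8.76 ± 1.18, NAB1 with 6.10 ± 0.665, NAB2 with 2.30 ± 0.667, EGR3 with 1.04 ± 0.0747 and EGR2 with 0.333 ± 0.130 FPM per kb (SD, n = 4). Within the 24 h libraries, the balance of NAB2 and EGR1 also differed between conditions. NAB2 per EGR1, both per kb, was 0.715 to 0.946 in Control and 0.783 to 1.11 with AngII. It was 0.136 to 0.350 with EGF and 0.153 to 0.226 with EGF+AngII. The share of NAB2 in the NAB pool was 12.3% to 20.7% in Control, 18.8% to 34.3% with EGF and 22.6% to 31.0% with EGF+AngII, so that EGF and Control overlapped in this share. The EGF library with the most EGR1, b11, had the least NAB2 of its group.

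**Figure D4:**
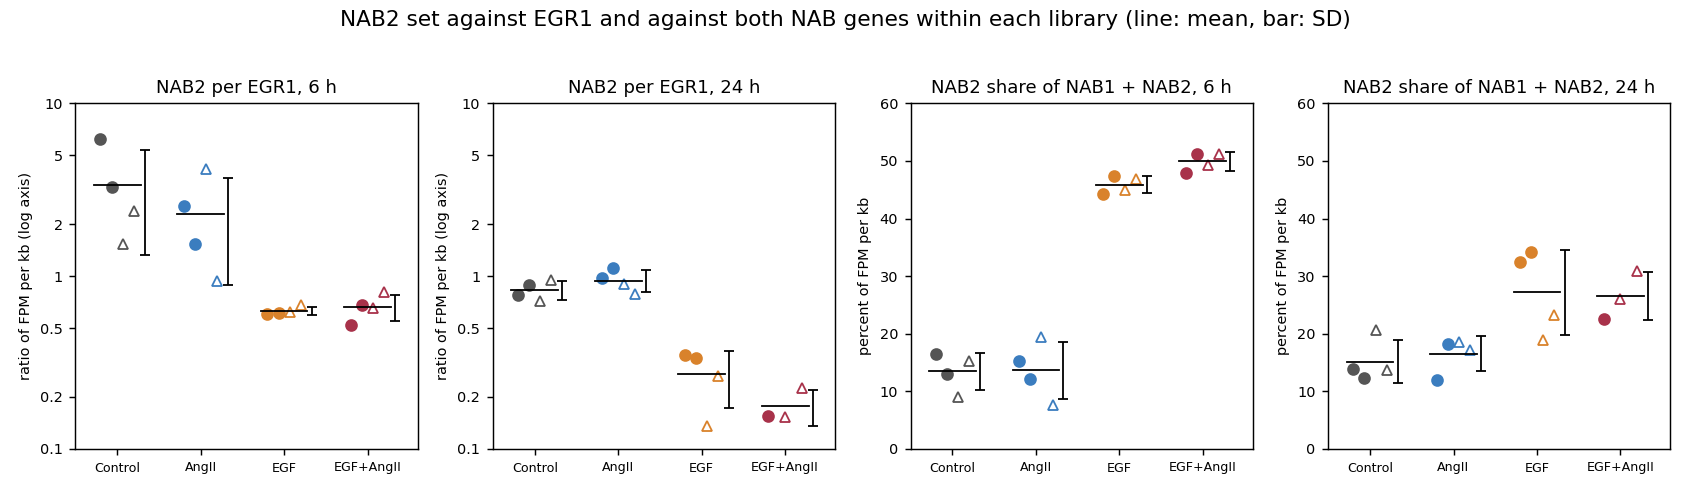
NAB2 per EGR1 (left, log axis) and NAB2 as a percentage of NAB1 plus NAB2 (right), both from FPM per kb within each library, after 6 h and 24 h; lines mark the mean and bars the SD. The NAB2 share is 44.3% to 51.2% in the libraries with EGF or EGF+AngII after 6 h and 18.8% to 34.3% after 24 h.

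Of 8 upstream inputs (the receptors EGFR and AGTR1, SRF and its cofactors of the ELK and MKL families) 0 were called with EGF after 6 h, with a median log2 fold change of 0.02 beside -0.01 over all genes and a range of -0.09 to 0.39 in edgeR. Of these, 2 passed the adjusted p but not the 1.5-fold change. EGFR had 45.6 ± 4.87 FPM in Control and 58.0 ± 5.27 FPM with EGF (SD, n = 4, log2 fold change 0.35, edgeR, adjusted p = 0.032), and ELK1 had 47.3 ± 3.74 and 61.8 ± 2.94 FPM (log2 fold change 0.39, edgeR, adjusted p = 0.0055). Of 13 NuRD subunits, the complex that NAB2 recruits, 0 were called with EGF (edgeR; 4 at an unadjusted p under 0.05) and 1, GATAD2A, with EGF+AngII (log2 fold change 0.59, SE 0.09, edgeR, adjusted p = 0.00019). With EGF GATAD2A passed the adjusted p but not the 1.5-fold change (log2 fold change 0.46, edgeR, adjusted p = 0.0029). CHD4, the subunit that NAB2 contacts, had a log2 fold change of 0.05 with EGF (SE 0.07).

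Of 24 genes described as direct EGR targets, 18 were tested after 6 h. With EGF their median log2 fold change was 0.30 beside -0.01 over all genes, with a range of -0.37 to 2.03. By the adjusted p alone 5 passed as higher and 1 as lower. With the limits on fold change and level, 3 were called higher and 0 lower. They were TGFB1, a growth factor, with a log2 fold change of 2.03 (SE 0.20, edgeR, adjusted p = 5.3e-07), the stress-responsive gene NDRG1 with 1.29 (SE 0.10, edgeR, adjusted p = 1.2e-08), and the VEGF receptor gene FLT1 with 0.89 (SE 0.16, edgeR, adjusted p = 0.0010). With EGF+AngII 4 were called higher, the same 3 and the tissue factor gene F3 (log2 fold change 1.07, SE 0.29, edgeR, adjusted p = 0.029), and against AngII the growth arrest gene GADD45B was called as well (log2 fold change 1.20, SE 0.32, edgeR, adjusted p = 0.026). For EGF+AngII against Control, 6 targets passed the adjusted p as higher and 1 as lower.

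TGFB1 had 4.88 ± 1.4 FPM in Control, 6.51 ± 1.30 with AngII, 20.4 ± 2.69 with EGF and 23.1 ± 5.03 with EGF+AngII after 6 h (SD, n = 4). After 24 h 0 of the 21 targets tested were called in any comparison with Control, with a median log2 fold change of 0.02 with EGF (edgeR; 9 at an unadjusted p under 0.05 with EGF and 5 with EGF+AngII). The largest of them with EGF was again TGFB1, with 9.04 ± 1.69 FPM in Control and 18.3 ± 5.01 FPM with EGF (SD, n = 4). AngII called 0 genes of these 3 lists at either time point (edgeR; 1 upstream gene at an unadjusted p under 0.05 after 6 h and 0 otherwise). Of the 6 HEK293 markers tested, NEFM, a neurofilament gene, was called higher with EGF after 6 h and 24 h, and NEFM and KRT18, a keratin gene, with EGF+AngII after 6 h, and whether this bears on the members was not tested.

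The genes most like EGR1 across the 16 libraries of 6 h were SPRED2, KCTD12, NDRG1, LONRF2 and MCOLN3, with Pearson's r of log2(FPM + 1) from 0.977 to 0.996 among 13534 genes. SPRED2, an inhibitor of RAS-ERK signalling, rose from 17.2 ± 1.59 FPM in Control to 48.9 ± 2.36 FPM with EGF (SD, n = 4). The members EGR3 and NAB2 had r = 0.970 and 0.947 with EGR1, and NAB1 had r = -0.70. The genes most like NAB2 were SH3RF3, TUBB6, CPLX1, USP11 and C11orf96, with r from 0.969 to 0.982. These correlations describe libraries that share the contrast between EGF and no EGF, and no p is attached to them.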

How the data were processed

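Total RNA of HEK293 cells was depleted of ribosomal RNA and sequenced as read pairs, per the labels. The authors deposited whole-number read counts for every gene, 1 table per time point, made with featureCounts 1.4.6 on hg19; the submitters' notes name Trim Galore, cutadapt 1.8.1 and TopHat2 2.0.14, while the series text names HISAT2. Of the 15 columns of 24 h, 8 are named as filtered. They are all counted libraries of the first library series, b01 to b07, and b15 of the second. In R 4.3.3, edgeR 4.0.16 (filterByExpr, TMM, quasi-likelihood test, Benjamini-Hochberg adjustment over all genes tested) was fitted per time point with 1 mean per condition, and over all 31 libraries for differences between time points. Calls required an adjusted p below 0.05, a fold change above 1.5 and a mean above 5 FPM. Single members were also compared by two-sided exact permutation tests on FPM. Alternatives were DESeq2 1.42.0, other scalings and filters, a block for the library series and leaving out libraries. All 6 members and all genes called in the lists are named; the likeness list names the 5 genes of highest r. Members and lists were chosen with earlier results of these data known. The procedure was tested on simulated data. Intervals cover the spread between libraries.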

Additional observations from a re-analysis of the deposited data

Results flagged for a closer look

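In 39 groups of 4 libraries, the gap between the most distant library and its nearest neighbour, as a share of the group's range, was above Dixon's 95% critical value in 7, where chance gives about 1.95. This share was 0.931 for EGR3 with AngII after 6 h (library c13, 1.33 FPM), 0.905 for NAB1 with EGF after 6 h (c03, 64.3 FPM), 0.866 for EGR1 with EGF after 24 h (b11, 33.0 FPM) and 0.859 for EGR3 with AngII after 24 h (b14, 2.60 FPM). For EGR4 after 24 h it was 1 in Control (b02), AngII (b14) and EGF (b03), groups in which the other libraries had no count. In such groups the share is 1 by construction, and the chance figure does not hold for them.

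The effects after 6 h and 24 h differed by the test of the difference itself for EGR1, by -1.96 with EGF and -1.72 with EGF+AngII on the log2 scale, and for NAB2, by -1.45 with EGF and -1.82 with EGF+AngII.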

How the results depend on the processing

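Of 60 results of single members, 46 kept their direction and their side of the threshold under every alternative. With EGF after 24 h, 2 members were called in place of 1, EGR3 being the gain, without the low-count filter, with the library series as a block or with protein-coding genes alone. The number of members whose EGF effect differed between the time points was 1 to 2 when a library was left out. Directions turned only for changes near 0 that were not called. Leaving out a library gave log2 values of -0.035 to 0.047 for NAB1 and -0.11 to 0.28 for NAB2 (AngII against Control, 6 h), -0.039 to 0.018 for NAB1 (EGF+AngII against EGF, 6 h), -0.068 to 0.014 for NAB1 and -0.068 to 0.32 for NAB2 (interaction, 6 h). After 24 h it gave -0.23 to 0.23 for EGR3 and -0.056 to 0.16 for NAB2 (AngII against Control), -0.34 to 0.015 for EGR3 (EGF+AngII against EGF), -0.0046 to 0.18 for NAB1 and -0.39 to 0.063 for EGR3 (interaction). The time difference of the AngII effect on NAB2 was -0.23 to 0.18. Without TMM scaling EGR2 differed by -0.0787 FPM between EGF and Control after 24 h. The cause of these changes was not tested. No paired analysis was possible because no label gives a replicate number shared by groups.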
